A study of Mus musculus with 54 samples.

Results

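In the series, mice killed after 14 days had saline-injected controls (CTR) that came as a pair of sets, and the comparison described here was between those sets. The arrays were found by their sample titles, which give the controls of day 14 either no mark (the first set) or a 2 after the group name (the second set), and they were 11 of the 54 arrays of the series. In the dentate gyrus (DG) the first set had 2 arrays and the second had 3, and in the lateral entorhinal cortex (LEC) each set had 3. All came from C57BL/6J male mice, one month old when the study began, housed singly, injected daily with saline into the abdomen, and killed under deep isoflurane anesthesia on day 14. No control mouse had a running wheel or received AICAR, the adenosine analog that activates AMP-activated protein kinase. By the study's account of its controls, treatment, strain, sex, age and time point were thus the same on both sides, but it does not describe 2 control sets of day 14. A subset of the study's mice also received bromodeoxyuridine, a label of dividing cells, and whether any mouse of these sets did was not given. The series sets running (RUN, arrays of days 7, 14 and 28) and a daily dose of AICAR (ACR, arrays of days 7 and 14) against saline in the 2 regions. Its titles place the runners of day 14 (RUN14) beside the first control set and the AICAR-treated mice of day 14 (ACR14) beside the second. By the mouse numbers in the titles the sets held 6 mice, 5 of them measured in both regions, and each region of each mouse was 1 array. The mice with both regions were replicates 1 and 3 of the first set and replicates 4, 5 and 6 of the second, and replicate 2 had an LEC array only. For each group the study chose the RNA samples of highest purity and concentration. Which mice shared a chip, a scan, a cage rack or an hour of killing was not given in the sources used here, so the set and any such batch cannot be told apart.

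The DG is the entry of the hippocampus, made mostly of granule neurons, and one of the few places in the adult brain where neurons are still born. The LEC sends its fibers to the DG. Neurons of both regions switch on immediate early genes such as Fos, Arc and Egr2 within minutes of firing, and these fade within hours, so handling, injection, wakefulness and the time from cage to death all leave a trace in them. Stress hormones raise Sgk1, Fkbp5 and Per1 through the glucocorticoid receptor, and the clock genes of the Per family also follow the hour of day. A DG dissected by hand can carry choroid plexus, fimbria myelin, meninges or neighboring pyramidal cells, whose genes then appear beside those of granule neurons.

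Levels below are log2 probe intensities on an Illumina MouseRef-8 array, scaled to the same mean and SD in every array of a region. A difference is the second set minus the first in log2 units, so that 1 is a doubling, with its standard error (SE) from limma, a linear model fitted to all genes, and a gene was called where its Benjamini-Hochberg adjusted p over all genes tested was under 0.05. The sets are said to be apart for a gene where every array of one lay above every array of the other. P-values rest on the spread between mice of the same group, pooled over all groups in the fit, treated ones included. In the arrays of the sets, 11680 to 12868 probes were detected. Pairs of LEC arrays correlated at 0.994 to 0.995 within a set and 0.991 to 0.994 between the sets, across all probes. DG arrays were less alike, at 0.988 within the first set, 0.980 to 0.993 within the second and 0.972 to 0.989 between them. Before scaling, the SD of log2 intensity in the first DG set was 2.04 in replicate 1 and 1.76 in replicate 3. Both lay outside the 1.82 to 1.94 of the second DG set. Prox1, the transcription factor that keeps granule neurons what they are, had mean levels of 10.8 and 10.2 in the DG sets against 7.03 and 6.98 in the LEC sets, so both DG sets carried the marker of their label.

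Some DG arrays stood apart in markers of neighboring tissue. Over the 6 choroid plexus and ependyma genes measured, the mean level, each gene centered on the control arrays of day 14 in the region, was -0.75 and -1.26 in the first set and -1.01, 3.05 and -0.03 in the second, so replicate 5 of the second set lay far above the rest. Ttr, the transthyretin that the choroid plexus secretes, was at 9.32 and 7.50 in the first set and at 8.47, 14.25 and 10.98 in the second. Clic6, another choroid plexus gene, was not detected in either array of the first set, at 6.23 and 6.03, and stood at 6.22, 12.93 and 7.53 in the second, which makes it at least 5.04-fold higher on average but overlapping. Neither gene was called (limma adjusted p = 0.379 for Ttr and 0.331 for Clic6). Without replicate 5 the list's median difference went from 1.6 to 0.47. The mean of the 10 myelin genes was -0.13 and -0.51 in the first set and 0.13, -0.45 and 0.97 in the second, so replicate 6 carried the most myelin RNA, and without it the list's median difference went from 0.57 to 0.11. Genes of meninges and fibroblasts were highest in replicate 3 of the first set, at 0.99, and in replicate 5 of the second, at 0.62. In these bulk samples, fewer cells of a type and less RNA per cell cannot be told apart.

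In the LEC, genes switched on by neuronal firing differed between the sets. Egr2, Fos and Arc were at lower mean levels in the second set, and so were most members of their list, but no gene of the region was called. Of 8543 genes tested, 0 (0%) had an adjusted p under 0.05, while 354 (4.14%) were higher and 265 (3.1%) lower at an unadjusted p under 0.05. The smallest adjusted p was 0.0624. Only 35 genes differed by more than 1.5-fold, and the SD of the differences over all genes was 0.16.

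The promoters of some activity and clock genes are printed here because the elements that answer firing and the clock can be read in them. Firing neurons phosphorylate CREB, which binds the cAMP response element, TGACGTCA, or its half-site TGACG, and the clock proteins bind the E-box CACGTG. Of the 7 genes looked up, 4 were in the RefSeq promoter table (GRCm38.p6, each from 250 bases before to 50 after a gene's start), and the others were Arc, Per2 and Bhlhe40. Capitals mark every TGACG, the full element where it stands, and every CACGTG, searched on both strands.
Fos: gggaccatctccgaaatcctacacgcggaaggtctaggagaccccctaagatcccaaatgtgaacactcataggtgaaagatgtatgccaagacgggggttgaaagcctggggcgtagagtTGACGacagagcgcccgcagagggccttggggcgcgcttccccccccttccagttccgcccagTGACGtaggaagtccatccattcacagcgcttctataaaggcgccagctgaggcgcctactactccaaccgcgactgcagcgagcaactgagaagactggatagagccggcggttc
Dusp1: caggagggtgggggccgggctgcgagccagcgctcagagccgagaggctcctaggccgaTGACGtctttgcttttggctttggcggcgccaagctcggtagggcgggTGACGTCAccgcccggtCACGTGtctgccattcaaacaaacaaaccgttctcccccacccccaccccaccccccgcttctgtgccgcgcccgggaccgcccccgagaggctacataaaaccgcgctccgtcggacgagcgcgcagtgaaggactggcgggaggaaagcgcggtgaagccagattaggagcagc
Scg2: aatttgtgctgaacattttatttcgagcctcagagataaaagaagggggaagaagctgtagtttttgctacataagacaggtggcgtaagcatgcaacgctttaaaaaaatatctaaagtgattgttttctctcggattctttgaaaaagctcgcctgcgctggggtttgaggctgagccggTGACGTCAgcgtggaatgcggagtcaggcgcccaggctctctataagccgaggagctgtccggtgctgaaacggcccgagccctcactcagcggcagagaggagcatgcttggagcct
Per1: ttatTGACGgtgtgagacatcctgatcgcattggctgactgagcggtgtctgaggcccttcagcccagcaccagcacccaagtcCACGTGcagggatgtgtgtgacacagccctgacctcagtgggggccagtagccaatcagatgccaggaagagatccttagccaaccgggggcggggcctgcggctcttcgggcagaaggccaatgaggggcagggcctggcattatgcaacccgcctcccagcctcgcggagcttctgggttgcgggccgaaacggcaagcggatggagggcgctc
The promoter of Fos (chr12:85473640-85473939, plus strand) held 2 half-sites and that of Dusp1 (chr17:26508423-26508722, minus strand) held 3 half-site matches, 2 of them the overlapping arms of a full element, besides 1 E-box. That of Scg2 (chr1:79439977-79440276, minus strand) held 2, both in 1 full element, and that of Per1 (chr11:69098699-69098998, plus strand, the more upstream of the 2 windows the table gives, inside the gene's full annotated span) held 1 half-site and 1 E-box. Of the 32851 promoters in the table, 20.8% held a half-site, 1.79% the full element and 7.15% the E-box, so a match describes these windows and no more.

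Egr2, a zinc-finger transcription factor of the immediate early class, was at 9.57, 9.65 and 9.23 in the LEC of the first set and at 7.67, 9.03 and 7.17 in the second. Every array of the second set lay below every array of the first, and replicate 5 came close to them. The difference was -1.53 ± 0.53 (SE), at a limma adjusted p of 0.459. Fos, a subunit of the AP-1 transcription factor, was at 10.04, 9.77 and 9.63 in the first set and at 8.21, 9.47 and 7.63 in the second (difference -1.38 ± 0.60, limma adjusted p = 0.633). Arc, which drives the uptake of AMPA receptors at active synapses, was at 10.79, 10.65 and 10.28 against 9.13, 10.13 and 8.56 (difference -1.30 ± 0.51, limma adjusted p = 0.55). The same 2 mice, replicates 4 and 6, were the low ones for each of these genes, and the arrays did not overlap for any of them. Across the LEC, every array of the second set was lower for 626 of the genes tested (7.33%) and higher for 873 (10.2%).

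Of the 26 immediate early genes listed, 18 were measured in the LEC and 17 of them had a lower mean in the second set, against 48% lower over all genes tested. Their median difference was -0.59 beside 0.0072 over all genes. At an unadjusted p under 0.05, 8 were lower, beside 3.1% of all genes. In every array 7 were lower, beside 7.33%, but 0 were called. The mean of the list was 0.33, 0.33 and 0.27 in the first set and -0.38, 0.19 and -0.74 in the second. Without replicate 6 of the second set the list's median was -0.32, and without replicate 5 it was -0.86. Dusp1, a phosphatase that switches off MAP kinases, overlapped between the sets, at 11.25, 10.73 and 10.65 against 10.21, 10.93 and 9.70. Npas4, which responds selectively to calcium entry, also overlapped, with a difference of -0.52. In the rest of the LEC arrays the mean of the list was -0.47 in the saline mice of day 7, 0.10 in those of day 28, -0.14 in RUN14 and -0.41 in ACR14, with single arrays from -0.91 to 0.25 over all other LEC groups. So the 3 arrays of the first set were the highest of the 28 LEC arrays for this list.

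**Figure D1:**
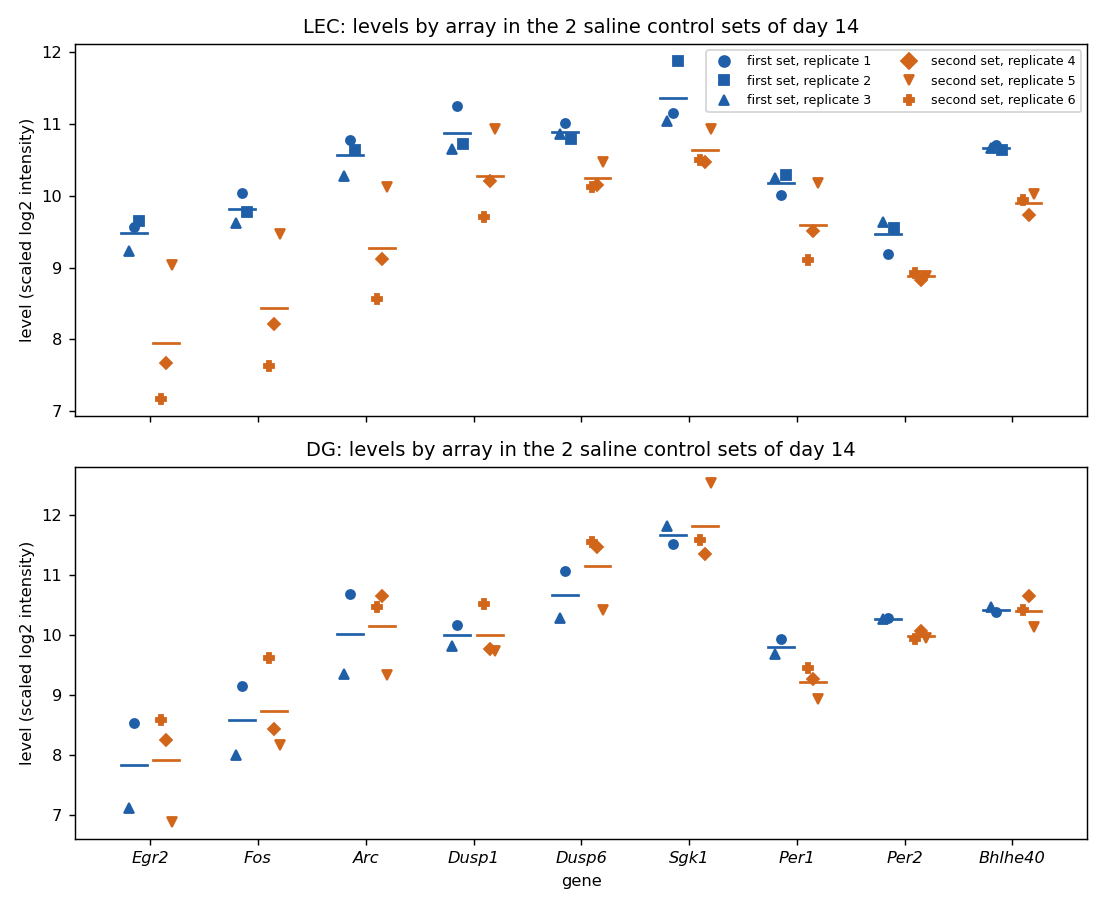
Levels of 9 activity, stress and clock genes in each control array of day 14, in the LEC (top) and the DG (bottom). The vertical axis is the scaled log2 intensity, points are arrays, with a symbol for each mouse, and short lines are means of the sets. In the LEC every second-set array of Egr2, Fos and Arc is below the first set, whereas in the DG the sets overlap for these 3 genes.

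The DG of the same mice did not show this order. Egr2 was at 8.54 and 7.12 in the first set and at 8.26, 6.89 and 8.59 in the second, a difference of 0.08. Fos was at 9.16 and 8.0 against 8.44, 8.16 and 9.62, and Arc was at 10.69 and 9.35 against 10.66, 9.33 and 10.46. The sets overlapped for all 3 genes, and the arrays split instead by mouse, with replicates 3 and 5 low. Over the 17 list members measured in the DG, 10 were higher and 7 lower, with a median of 0.013, and this median turned negative without replicate 3 (-0.24), replicate 4 (-0.059) or replicate 6 (-0.19). Among the control arrays of day 14, replicate 5 had the lowest list mean in the DG, at -0.50, yet the highest of the second set in the LEC. Replicate 6 had the highest of them in the DG, at 0.33, and the lowest in the LEC. The other DG groups had list means from -0.52 (RUN28) to -0.25 (saline, day 28), with single arrays from -0.72 to 0.012. The difference between the regions was 1.62 ± 0.74 (SE) for Egr2, at a limma adjusted p of 0.343 for the DG difference minus the LEC difference, so it was not called. For Fos that contrast was 1.54 ± 0.90 (limma adjusted p = 0.488) and for Arc 1.43 ± 0.77 (limma adjusted p = 0.445).

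Genes that respond over hours were also lower on average in the LEC of the second set. All 10 slower activity genes measured had a lower mean, with a median of -0.28 that was -0.13 with no detection filter, which adds dim genes. At an unadjusted p under 0.05, 3 were lower, beside 3.1% of all genes. Bdnf, the growth factor that firing neurons release, differed by -0.47 with overlapping arrays, and another Bdnf probe differed by only -0.023. Dusp6, a phosphatase induced by ERK signaling, was at 11.02, 10.79 and 10.87 in the first set and at 10.15, 10.47 and 10.13 in the second (difference -0.64, limma adjusted p = 0.206). Its other probes differed by -0.54 and -0.11. Gadd45g, a stress-inducible gene, differed by -0.52 with no overlap. In the DG 8 of 10 slower activity genes had a lower mean, with a median of -0.13, and Scg2, the precursor of secretoneurin, differed there by -0.61 with every second-set array lower.

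The gene nearest to a call in the LEC was Bhlhe40, a transcriptional repressor that responds to activity and feeds back on the clock. It was at 10.71, 10.65 and 10.67 in the first set and at 9.73, 10.02 and 9.94 in the second. The groups were well apart, the difference was -0.78 ± 0.14 (SE) and its limma adjusted p was 0.0624. That p was under 0.05 in 4 of 14 alternative settings, lowest at 0.0217 in a fit of the saline arrays only, and the difference stayed between -0.84 and -0.70. In the DG the difference was -0.022. Bcl6, a zinc-finger repressor, was also apart in the LEC, at 9.92, 10.06 and 10.11 against 9.50, 9.48 and 9.36 (difference -0.58, limma adjusted p = 0.174). Among genes higher in the second set, Itm2a, a membrane protein found in brain endothelium, shared the smallest adjusted p (0.0892) with Gle1 and Rab40b, at 8.68, 8.78 and 8.80 against 9.19, 9.56 and 9.51.

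The glucocorticoid-responsive list had 20 members measured in each region. In the LEC 15 were lower, with a median of -0.23, and 5 were lower at an unadjusted p under 0.05, beside 3.1% of all genes. Without replicate 2 of the first set the median was -0.063. Sgk1, a kinase induced by corticosterone, was at 11.15, 11.88 and 11.04 in the first set and at 10.47, 10.93 and 10.50 in the second (difference -0.72, limma adjusted p = 0.393), so the sets did not overlap and replicate 2 was the highest. Fkbp5, the co-chaperone that dampens the receptor, differed by 0.046 in the LEC and -0.20 in the DG. Over the list the DG median was 0.041, with 13 of 20 higher.

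The clock list shares Per1 with the immediate early and the glucocorticoid-responsive lists, so these lists are not separate observations. Clock genes were lower on average in both regions, by small amounts. In each, 13 of 19 measured members had a lower mean, with medians of -0.13 in the DG and -0.10 in the LEC. At an unadjusted p under 0.05, 3 were lower in each, beside 9.67% of all genes in the DG and 3.1% in the LEC. Per1 was at 9.93 and 9.68 in the DG of the first set and at 9.27, 8.93 and 9.45 in the second (difference -0.59, limma adjusted p = 0.245). In the LEC it was at 10.02, 10.29 and 10.25 against 9.51, 10.17 and 9.10, with the same difference of -0.59, but replicate 5 reached into the first set. The other Per1 probe differed by -0.27 in the DG and -0.58 in the LEC. Per2 in the LEC was at 9.20, 9.56 and 9.64 against 8.83, 8.88 and 8.92, apart, and its other probe differed by -0.71. Per3 was lower in every second-set array of both regions, with differences of -0.64 in the DG and -0.29 in the LEC, and over the mean of both regions it came to -0.46 ± 0.13 (SE), at a limma adjusted p of 0.0688. Dbp, a clock output that swings widely over the day, differed by only -0.11 in the DG and -0.18 in the LEC with overlap in both. The hour of killing was not given, and its part in these values was not tested.

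Genes of body temperature and protein folding were mixed. Rbm3 and Cirbp, which rise when tissue cools, differed by 0.11 and 0.033 in the DG, and by 0.25 and 0.20 in the LEC, where every second-set array was higher for both. Of 12 cytosolic heat shock genes measured in the DG, 9 had a higher mean in the second set, with a median of 0.16. At an unadjusted p under 0.05, 3 were higher, beside 8.11% of all genes, and 4 were higher in every array, beside 16.8%. In the LEC 8 of 14 had a lower mean, with a median of -0.11. Hspa1a, the inducible HSP70, differed by 0.16 in the DG and -0.34 in the LEC. Cryab, the small heat shock protein alphaB-crystallin, was at 9.26 and 9.32 in the DG of the first set and at 9.70, 10.61 and 10.36 in the second, where replicates 5 and 6, the arrays with the most choroid plexus and myelin RNA, were the highest. It differed by 0.93 in the DG (limma adjusted p = 0.0998) and 0.12 in the LEC, with overlap in the latter, and was the list's only call over the mean of both regions (0.53, limma adjusted p = 0.0464).

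In the DG, more genes were called and differences were larger than in the LEC. The first set had 2 arrays in the DG and 3 in the LEC, so the counts of the regions are not like for like. With fewer arrays, sets lie apart more often. The direct contrast of the regions called 0 of 8272 genes. Of 8755 genes tested, 3 were called higher in the second set (0.0343%) and 8 lower (0.0914%), and 710 were higher (8.11%) and 847 lower (9.67%) at an unadjusted p under 0.05. Differences past 1.5-fold numbered 548, and their SD over all genes was 0.32. The 11 calls depended on single arrays: 12 genes were called without replicate 4, but 0 were called without replicate 1, 3, 5 or 6. They also depended on the arrays in the fit, since 0 were called from the arrays of the sets alone, and on the scaling, since quantile normalization called 57. Every array of the second set was higher for 1473 genes (16.8%) and lower for 1776 (20.3%).

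The 3 genes called higher were short genes of metabolism and signaling. Pebp1, an inhibitor of the RAF kinase also known as RKIP, was at 9.19 and 9.22 in the first set and at 10.23, 10.26 and 10.27 in the second. The arrays were tightly grouped, and the difference was 1.05 ± 0.17 (SE), at a limma adjusted p of 0.0286. Ndufb9 and Ndufb10 encode subunits of complex I of the respiratory chain. Ndufb9 was at 7.69 and 7.45 against 8.64, 8.89 and 8.66 (1.16 ± 0.23, limma adjusted p = 0.0485), and Ndufb10 was at 7.69 and 7.70 against 8.74, 8.69 and 8.78 (1.04 ± 0.21, limma adjusted p = 0.0479). In the other saline groups Ndufb10 had means of 8.52 on day 7 and 8.41 on day 28, so for this gene the first set was the unusual one. In the LEC the differences were 0.20 for Pebp1, 0.057 for Ndufb9 and 0.21 for Ndufb10.

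The 8 genes called lower lay in longer stretches of genome than the genes called higher, although Tardbp spanned less than the median of 22751 bp over all genes. Plxna2, a semaphorin receptor that guides mossy fibers, was at 10.41 and 10.36 in the first set and at 9.70, 9.07 and 9.38 in the second (-1.0 ± 0.18, limma adjusted p = 0.0286). Tardbp, the RNA-binding protein TDP-43, was at 10.13 and 10.09 against 9.07, 9.04 and 8.86 (-1.12 ± 0.21, limma adjusted p = 0.0286). The other probes of Tardbp differed by -0.33 and 0.28, so that its call holds for 1 of 3 probes. Cdk12, a kinase of transcription elongation that is needed for long genes, was at 7.72 and 7.37 in the first set and not detected in any array of the second, at 6.41, 6.24 and 6.45, which makes it at least 2.03-fold lower (limma adjusted p = 0.0286). Its other probe differed by -0.98. Mycbp2, a ubiquitin ligase of axons and synapses, was at 11.35 and 11.63 against 10.63, 10.20 and 10.27 (-1.12, limma adjusted p = 0.0485), and its other probe differed by -0.95. Dnm1l, the dynamin-like protein that divides mitochondria, was at 11.20 and 11.26 against 10.61, 10.19 and 10.46 (-0.81, limma adjusted p = 0.0286), but its other probe differed by -0.30. The remaining calls were Tnr, an extracellular matrix protein (-1.0, limma adjusted p = 0.0297), Zfc3h1, a zinc-finger protein of nuclear RNA decay (-0.78, limma adjusted p = 0.0449), and Ncapd2, a subunit of condensin (-0.71, limma adjusted p = 0.0485). In the LEC, where 6 of the 8 were tested, their differences lay between -0.17 and 0.18.

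**Figure D2:**
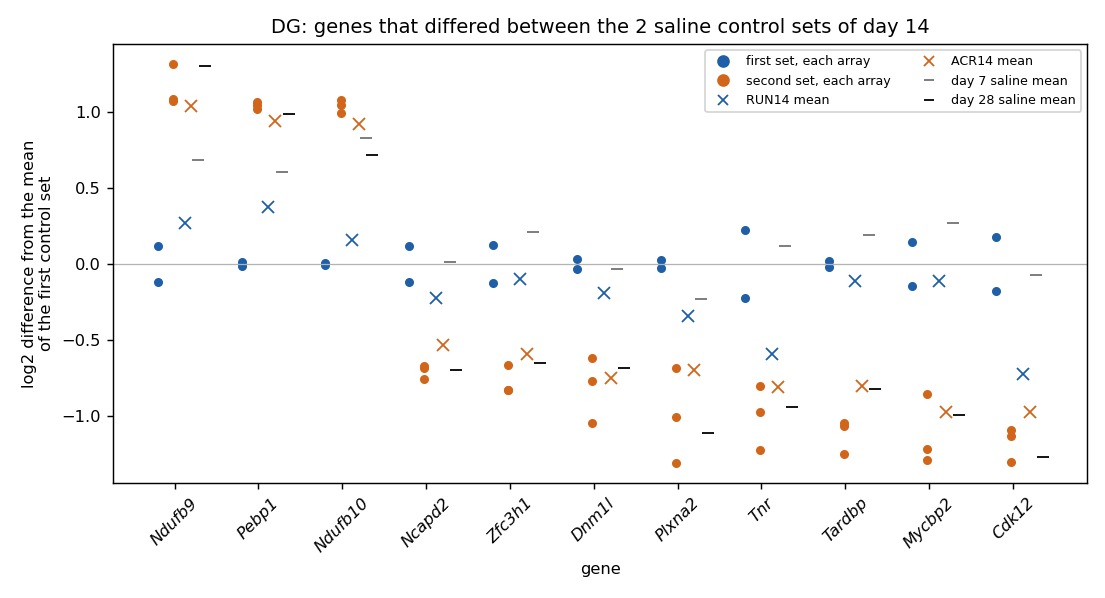
The 11 genes called in the DG, as log2 difference from the mean of the first control set on the vertical axis. Dots are control arrays of day 14, crosses are means of RUN14 and ACR14, and dashes are means of the saline groups of days 7 and 28. The 3 genes at the left lie about 1 above the first set in every second-set array, and the 8 at the right lie below it.

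The DG difference followed gene length. The 8755 genes were split into 5 bins by the span of the gene in GRCm38.p6. In the shortest bin (107 to 7641 bp) the median difference was 0.16 and 28% of genes were lower, and in the longest (69094 to 2270506 bp) it was -0.19 and 73.9% were lower. The bins between lay in order, at medians of 0.057, -0.010 and -0.10. At an unadjusted p under 0.05, the shortest bin had 311 genes higher and 32 lower, whereas the longest had 41 higher and 395 lower. Of the called genes, Pebp1, Ndufb9 and Ndufb10 spanned 4914, 5716 and 2364 bp, and the 8 lower ones spanned from 14703 bp for Tardbp to 408001 bp for Tnr. In the LEC the medians of the 5 bins stayed between -0.015 and 0.022.

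Array by array, the longest bin minus the shortest came to 0.30 and 0.12 in the first DG set and to -0.15, -0.19 and -0.081 in the second, as medians over genes centered on the control arrays of day 14. The sets did not overlap, and replicate 1 lay furthest out. The saline mice of day 7 were at 0.14, 0.062 and 0.11, those of day 28 at -0.28, -0.14 and 0.046, RUN14 at 0.14, -0.14 and -0.044, and ACR14 at -0.12, -0.052 and -0.25. The RNA integrity of single arrays was not given in the sources used here, and the part of this slope in the DG differences was not tested.

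**Figure D3:**
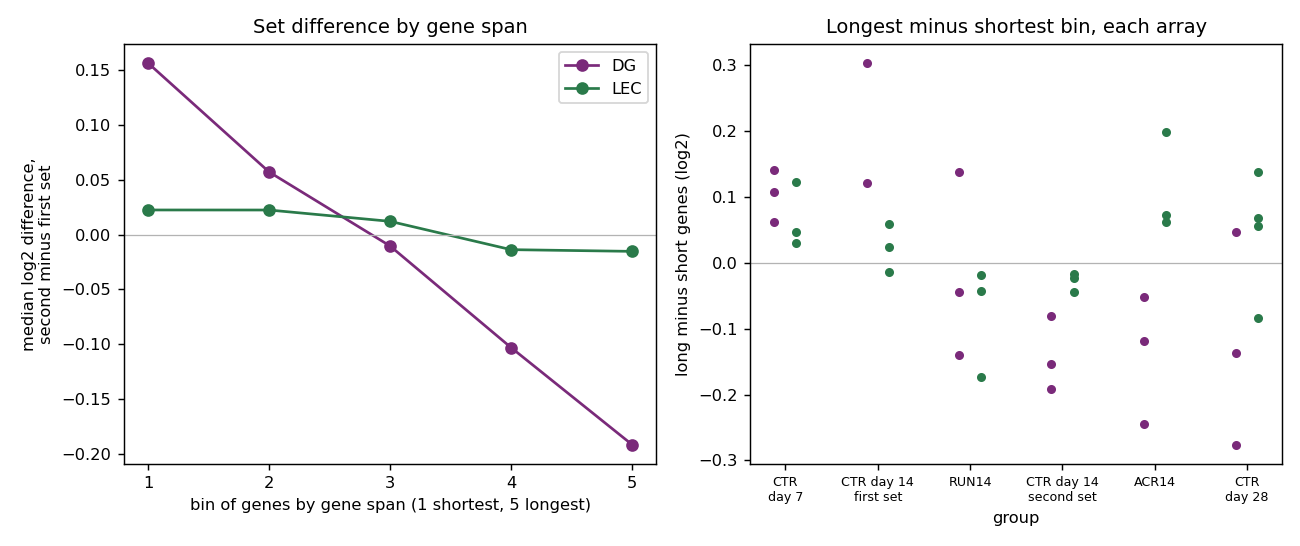
Left, median log2 difference of the second minus the first control set for 5 bins of genes ordered by gene span, in the DG and the LEC. Right, the longest bin minus the shortest in each array (points) of the saline, RUN14 and ACR14 groups. The DG line falls from 0.16 to -0.19 while the LEC line stays near 0, and the 2 DG arrays of the first set lie above the 3 of the second.

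In the DG the lists of the respiratory chain and of ribosomal proteins lay higher in the second set. That of glutamate receptors and postsynaptic scaffolds lay lower. The measured members of the respiratory chain list had a median span of 7079 bp, and those of the ribosomal list 4168 bp. For glutamate receptors and scaffolds it was 101373 bp, beside 22751 bp over all genes. The part of gene span in the differences of these lists was not tested. Of 37 genes for subunits of the respiratory chain or of ATP synthase, 34 had a higher mean in the second set against 48.1% of all genes, with a median of 0.31 beside -0.015. Ndufb9 and Ndufb10 were called. At an unadjusted p under 0.05, 13 were higher, beside 8.11% of all genes, and 23 were higher in every array, beside 16.8%. The list mean was -0.35 and -0.087 in the first set and 0.17, 0.19 and 0.080 in the second, and the median without replicate 1 was 0.15 and without replicate 3 was 0.47. Of 26 ribosomal protein genes, 23 had a higher mean, with a median of 0.32, which became 0.086 without replicate 1 and 0.57 without replicate 3. Of 15 glutamate receptor and postsynaptic scaffold genes, 12 had a lower mean, with a median of -0.41 that became -0.12 without replicate 1 and -0.25 without replicate 5. At an unadjusted p under 0.05, 2 were lower, beside 9.67% of all genes, and 5 were lower in every array, beside 20.3%. In the LEC the respiratory chain, ribosomal and glutamate receptor lists had medians of -0.042, 0.0056 and 0.017. Other lists of metabolism and synapses differed less in the DG. Of 20 synaptic vesicle and release genes, 13 had a lower mean there, with a median of -0.081. The medians were 0.045 for cholesterol synthesis and -0.029 for serine and one-carbon enzymes. Cox6c, a subunit of cytochrome c oxidase, was at 11.67 and 11.41 against 12.22, 12.73 and 12.45 in the DG, but in the LEC every second-set array was lower, with a difference of -0.62.

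Genes of granule neurons and of their precursors were lower on average in the DG of the second set, without a call. All 5 granule neuron markers measured had a lower mean, with a median of -0.39 that was -0.21 without replicate 6, -0.56 without replicate 5 and -0.11 with no detection filter. Rfx3, a ciliary transcription factor of these cells, differed by -0.81, Prox1 by -0.61 (-1.58 on its other probe) and C1ql2, a synaptic organizer of mossy fibers, by -0.39 with overlap. All 5 genes of newborn neurons and progenitors also had a lower mean, with a median of -0.35. The median was -0.21 without replicate 4 and -0.19 with no detection filter. Dcx, the microtubule protein of migrating young neurons, was at 8.72 and 8.56 in the first set and at 7.77, 7.83 and 8.37 in the second (-0.65 ± 0.27, limma adjusted p = 0.203). The arrays of Dcx did not overlap, and replicate 6 came closest to the first set. Trf, the transferrin that oligodendrocytes and choroid plexus make, was at 10.79 and 10.70 against 11.21, 12.16 and 11.95 (1.03 ± 0.35, limma adjusted p = 0.147). Replicates 5 and 6 were thus the highest for Trf. Trf is itself a member of the myelin list, and the mean of that list in replicate 5 was -0.45. Ppp1r1b, the dopamine signaling protein DARPP-32 of striatal neurons, was at 9.16 and 9.20 against 10.02, 11.84 and 9.81 (1.37, limma adjusted p = 0.129), highest in the array with the most choroid plexus RNA. Its other probes differed by 0.60 and 0.76, and the striatal list it comes from went both ways, with 4 of 7 higher and a median of 0.026. The measured granule neuron genes had a median span of 52793 bp and those of newborn neurons and progenitors 17321 bp, beside 22751 bp over all genes. What gene span or the amount of neighboring tissue contributed to the lower granule neuron and Dcx values was not tested.

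**Figure D4:**
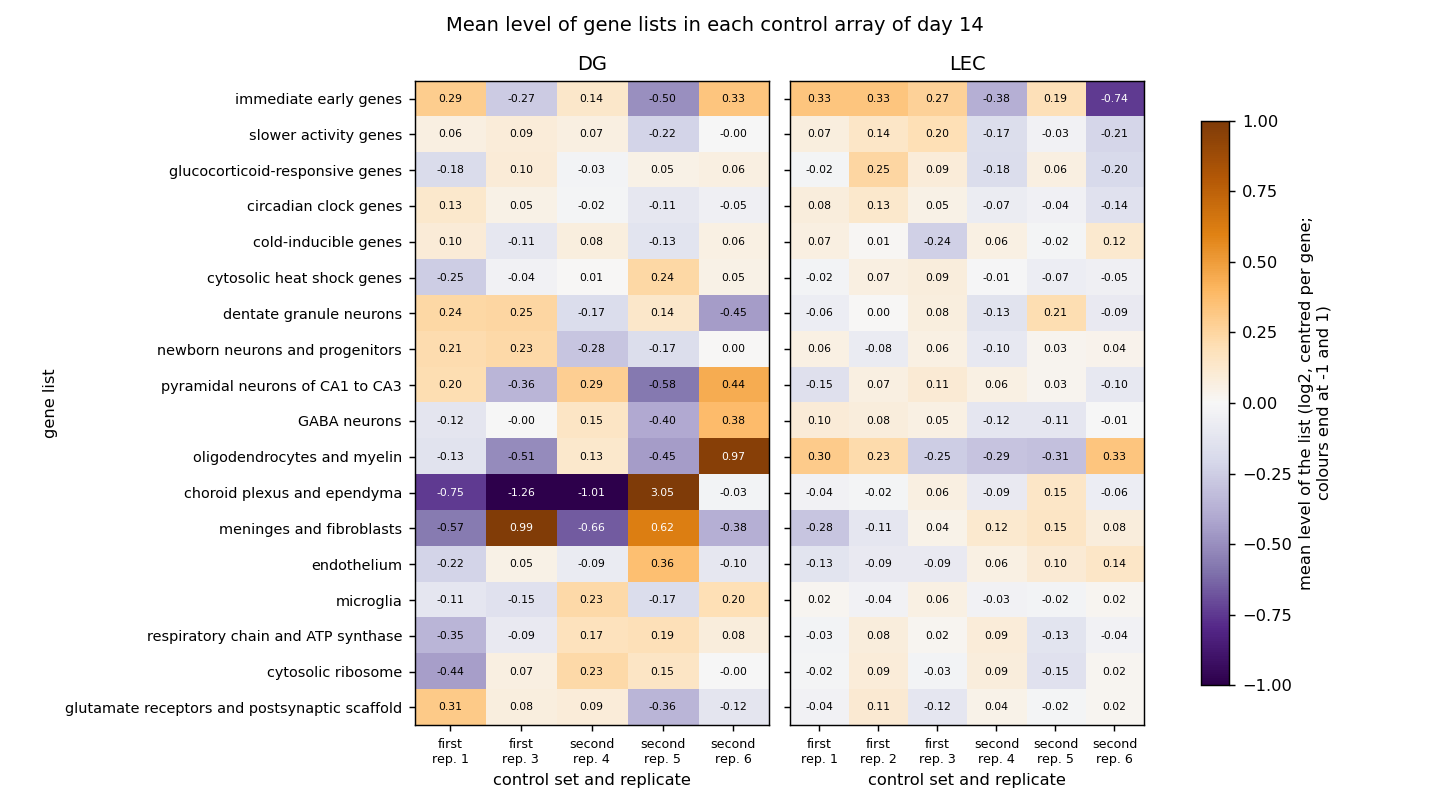
Mean level of 18 gene lists in each control array of day 14, in the DG (left) and the LEC (right). Rows are lists, columns are arrays with their set and replicate, and numbers and colors give the mean log2 level centered per gene within the region, with colors ending at -1 and 1. The immediate early gene row is high in all 3 first-set LEC arrays, and the choroid plexus row reaches 3.05 in DG replicate 5 of the second set.

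As a summary over the regions, the differences of the DG and the LEC were averaged in a joint model of the 54 arrays. Arrays of 1 mouse formed a random block. A large difference in 1 region can pass this contrast alone, so a call does not show a difference in both. Ndufa12, for example, was called with 0.83 in the DG and 0.00028 in the LEC. Of 8272 genes, 47 were called higher in the second set (0.568%) and 35 lower (0.423%), with 804 (9.72%) and 731 (8.84%) at an unadjusted p under 0.05. All 47 had the higher mean in both regions, but 41 differed more in the DG. Every second-set array was higher in both regions for 30 of them, beside 2.44% of all genes. Of the 35 lower genes, 31 were lower in both regions and 34 differed more in the DG. The arrays were apart in both for 15, beside 1.78% of all genes. The called genes were picked on the mean of these same differences, so the counts describe them and add no support. The median differences were 0.59 in the DG and 0.30 in the LEC for the higher genes, and -0.68 and -0.18 for the lower ones. The count rested on the arrays taken: it was 14 without replicate 1, 40 without replicate 2, 1 without replicate 3, 209 without replicate 4, 3 without replicate 5 and 4 without replicate 6. With no block for the pairing of regions within a mouse, 43 genes were called, 23 higher and 20 lower. The block took the correlation within a mouse as -0.063, and a negative value narrows the SE of this mean. With neqc scaling the split turned to 39 higher and 49 lower.

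Plxna2 had the smallest p of this contrast and was called under all 15 alternatives, at adjusted p-values of 0.000173 to 0.0432. In the LEC it was lower in every second-set array, with a difference of -0.17, and the mean of both regions was -0.59 ± 0.092 (SE, limma adjusted p = 0.000796). The DG difference gave most of that mean. Mef2c, a transcription factor of neurons that activity regulates, differed about equally, at 12.15 and 12.46 against 11.86, 11.87 and 11.51 in the DG, and at 12.84, 12.91 and 12.76 against 12.39, 12.08 and 11.93 in the LEC. It was apart in both regions (mean -0.63 ± 0.13, limma adjusted p = 0.0162), and its other probes differed in the same direction in each. Rnf19a, a ubiquitin ligase (-0.61, limma adjusted p = 0.00861), and Sorl1, a sorting receptor of the amyloid precursor protein (-0.67, limma adjusted p = 0.037), were also lower and were apart in both regions.

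Among the genes called higher in the mean, Mdh1, cytosolic malate dehydrogenase, differed about equally in both regions, at 0.62 in the DG and 0.60 in the LEC. Its mean was 0.61 ± 0.13 (SE, limma adjusted p = 0.0136). Its LEC levels were 8.93, 9.26 and 8.78 in the first set and 9.56, 9.59 and 9.61 in the second, clearly apart, although its other probe differed by only 0.0025 there. Gpx4, the peroxidase that clears lipid peroxides, was at 10.05 and 9.76 against 10.70, 11.05 and 10.83 in the DG. In the LEC it was at 10.22, 10.23 and 10.27 against 10.64, 10.53 and 10.52 (mean 0.64 ± 0.12, limma adjusted p = 0.00636). Its other probe differed by 0.14 in the DG and -0.010 in the LEC, so the call belongs to 1 of 2 probes. Itm2a (0.51, limma adjusted p = 0.0472) and Slco1a4, an anion transporter of the blood-brain barrier (0.44, limma adjusted p = 0.0472), were the called members of the endothelial list, of which 8 of 11 had a higher mean over both regions, with a median of 0.14. S100a1, a calcium-binding protein, was called in this contrast (0.65, limma adjusted p = 0.0292) with 1.13 in the DG and 0.16 in the LEC.

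**Figure D5:**
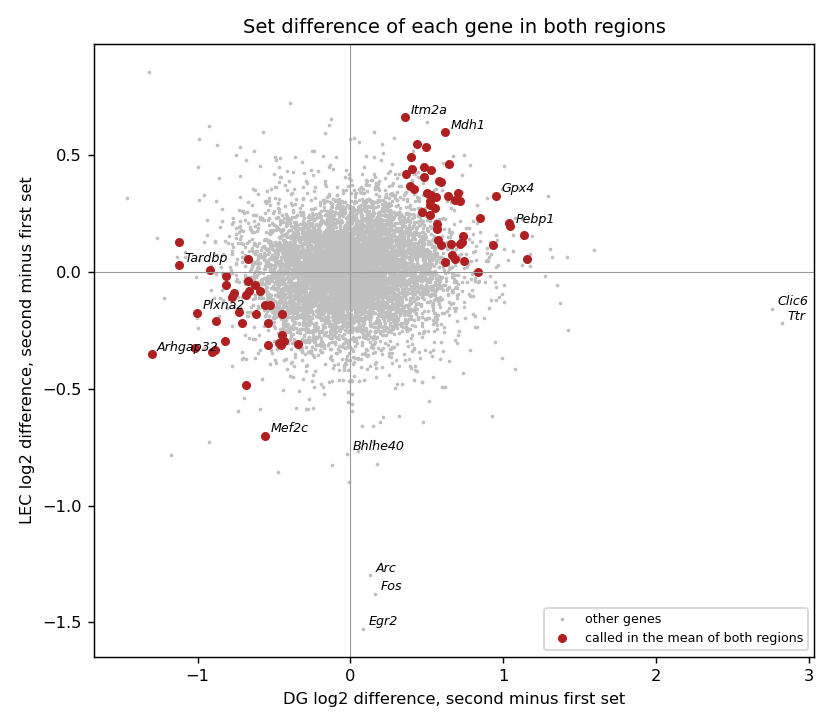
Log2 difference of the second minus the first control set for each gene, in the DG on the horizontal axis and in the LEC on the vertical axis. Gray points are genes, red points are the 82 genes called in the mean of both regions, and 14 genes are named. Differences spread wider in the DG, and Mef2c and Mdh1 lie near the diagonal while Egr2, Fos and Arc lie low in the LEC near 0 in the DG.

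The regions were then compared gene by gene. Across the 8276 genes tested in both regions the DG and LEC differences correlated at 0.066, and 53.7% had the same sign, a description over genes of the same mice. Arrays were apart in the same direction in both regions for 202 genes higher (2.44%) and 147 lower (1.78%). At an unadjusted p under 0.05 in both regions there were 91 genes, which were 6.16% of those of the DG, against 7.1% of all genes that passed in the LEC, and 15.5% of those of the LEC, against 17.8% of all genes that passed in the DG, and 38 of them were higher and 23 lower in both. The rest of the 91 went opposite ways in the 2 regions. Counted without regard to direction, the overlap was thus no larger than the shares over all genes. For the DG difference minus the LEC difference 0 of 8272 genes were called (0%) by limma, 1035 had an unadjusted p under 0.05, and the smallest adjusted p was 0.0576. Mycbp2 (-1.25), Zfp334 (-0.77) and Clip1 (-0.69), a microtubule plus-end protein, shared that smallest value. With no block for the mouse 13 genes were called, 2 with a positive and 11 with a negative contrast. Cdkn1a, the cell cycle inhibitor p21, was apart in opposite directions, at 0.51 in the DG and -0.55 in the LEC (limma adjusted p of the contrast = 0.183).

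Mice treated for 14 days offered other arrays labelled with the same sets, although their treatments differed. ACR14 minus RUN14 was therefore set beside the difference between the control sets, a comparison added after the values above were seen. In the DG, ACR14 was higher than RUN14 for 1 gene called (0.0114%) and lower for 0 (0%). All 11 genes called between the control sets had the same direction there, against 69.8% of all genes. Of the 11, 9 also had an unadjusted limma p under 0.05. The same held for 1217 of all 8755 genes tested, and 89 passed in the opposite direction. Ndufb10 differed by 0.76, Ndufb9 by 0.77, Pebp1 by 0.57, Mycbp2 by -0.86 and Tardbp by -0.69, and the arrays were apart for all 5. Of the 82 genes called over both regions, 79 (96.3%) had the same direction in the DG. In the LEC, 10 genes were called higher in ACR14 (0.117%) and 48 lower (0.562%), 49.9% of all genes had the same direction as between the control sets, and 33 of the 82 (40.2%) did. Ndufb10 and Gpx4 were lower in ACR14 there, with differences of -0.57 and -0.56 (limma adjusted p = 0.0415 and 0.0356), opposite to the control sets. Egr2, Fos and Arc differed by -0.32, -0.56 and -0.59 in the LEC with overlapping arrays. Treatment and set cannot be told apart in these arrays.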

How the data were processed

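The authors hybridized total RNA from the DG and the LEC to Illumina MouseRef-8 arrays and deposited probe intensities with detection p-values from GenomeStudio 1.6.0, not normalized. For each probe the authors deposited a z-score as well, that is its log intensity scaled within the array. Scores recomputed from the deposited intensities differed from the deposited scores by at most 5e-10.

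Here the intensities of all 54 arrays were taken to log2, z-scaled within the array as in the study, and multiplied by the mean SD of the region. A probe entered the tests if all arrays of some group detected it at a p of 0.02 (at or below; 12658 probes in the DG, 12233 in the LEC), and each gene was read from its brightest probe. Of 25697 probes, 23978 had 1 gene symbol and 1719 none, and 10 symbols were updated through RefSeq (GRCm38.p6). limma 3.58.1 with statmod 1.5.0 in R 4.3.3 fitted 1 mean per group in each region over all its arrays, so that every group shares the estimate of the spread. A joint fit over genes kept in both regions took arrays of 1 mouse as a random block (duplicateCorrelation), where the replicate number and the mouse number in the titles pair the regions, and the estimated correlation within a mouse was -0.063. Contrasts were the second minus the first set, the mean over regions, and the DG difference minus the LEC difference, and calls were made at an adjusted p under 0.05. The scripts were tested on simulated data. The number of arrays limits the precision. An "at least" fold puts each array of the group without detection at the lowest signal detected on that array, or at the probe's own signal where that was higher.

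Named genes were up to 10 per direction and comparison among those called, filled by unadjusted p among genes whose arrays were apart, the 4 members of each of 36 lists with the largest mean size of difference, the 10 of smallest p between the regions, and a fixed set such as Fos, Arc and Ttr. Members and lists were chosen with earlier results of these data known, and lists are described without a test. Alternatives were quantile normalization, neqc, the deposited z-scores, other probe filters, every probe on its own, fewer arrays in the fit, no block and leaving out each replicate. The other treatment groups entered the fits and gave context only.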

Additional observations from a re-analysis of the deposited data

How the results depend on the processing

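In the DG, where 11 genes were called, quantile normalization gave 57 (16 higher and 41 lower), neqc 37 (7 and 30), a stricter detection filter (0.01 in all arrays) 27 (9 and 18), separate probes of a gene 6 (1 and 5), and no detection filter 16. The deposited z-scores gave 11. Fits of only the arrays of the sets and of only the saline arrays gave 0 each, and leaving out single replicates gave 0 to 12. In the LEC, where 0 were called, the stricter filter gave 1, separate probes 2, the arrays of the sets alone 3 and the saline arrays 2, and leaving out single replicates gave 0. For the mean of both regions, with 82 called (47 higher and 35 lower), quantile normalization gave 105 (52 and 53), neqc 88 (39 and 49), separate probes 156 (106 and 50), the arrays of the sets alone 36, the saline arrays 20, and leaving out single replicates 1 to 209. For the DG difference minus the LEC difference, with 0 called, quantile normalization gave 22, neqc 19, no detection filter 2, the arrays of the sets alone 36, the saline arrays 11, and leaving out single replicates 0 to 1. With no replicate block for the pairing of the regions of a mouse, the mean gave 43 and the difference between regions 13. That fit takes the correlation within a mouse as 0, where the block estimated -0.063. A negative value narrows the SE of the mean over regions and widens that of their difference. No paired analysis was possible because the sets share no mouse and no replicate number within a region, so the block bears only on the contrasts over both regions. The cause of the other shifts was not tested, beyond the fewer arrays in the fits that leave some out. No called difference of a named gene changed sign. Over the 11 genes called in the DG, 76 of 141 repeats lost the call and 65 kept it, and over the 14 named genes called in the mean with repeats, 60 of 209 lost it and 149 kept it. With no detection filter the LEC median of slower activity genes was -0.13 and the DG medians of granule neuron and newborn neuron genes were -0.11 and -0.19. Probes near background limit what the arrays can show of dim genes such as Cdk12.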
